A study of Nicotiana tabacum with 36 samples.

Results

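The difference between 2 tobacco cultivars in their first response to cold was measured here as an interaction: the change from 0 h (CK) to 0.5 h at 4 °C in Yanyan97 (YT) minus the same change in Taiyan8 (TT). YT is the cold-resistant cultivar and TT the cold-susceptible one, and a negative interaction means that the response in YT was lower than in TT. The comparison used 12 of the 36 RNA-seq libraries of the series, 3 for each of TT at 0 h, TT at 0.5 h, YT at 0 h and YT at 0.5 h, and all 35519 genes in the count table, of which 23740 passed the filter on low counts. All 4 groups were leaves of seedlings at the five-leaf stage grown in days of 16 h light and 8 h dark, and by their labels the groups differ in cultivar and in time in the cold. Each cultivar stands for its phenotype by 1 genotype. No plants left warm for 0.5 h were analysed here, so cold and the time since 0 h cannot be told apart within a cultivar, and the leaf identity of the samples was not checked here against marker genes.

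Plants sense a drop in temperature within minutes through changes in the membrane and a rise of calcium in the cytosol. Calcium-dependent protein kinases, receptor-like kinases and mitogen-activated protein kinase (MAPK) cascades carry the signal on, and transcription factors of the AP2-EREBP, WRKY, GRAS and C2H2 families are among the first genes to be transcribed. The best known of them are the CBF (DREB1) genes, which bind the C-repeat element of cold-regulated genes. An early response of this kind is transient, so the level of such a gene depends on when it is sampled. Tobacco is an allotetraploid with paired copies of many genes, and reads that matched both copies were not counted, so the split of counts between copies is uncertain for every gene named here.

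The 12 libraries held 22466934 to 26691552 counts on genes. The first principal component of their log2 CPM (CPM is a gene's count scaled to the total of its library) held 28.6% of the variance and separated the cultivars, and the second held 25.4% and separated the time points within each cultivar. YT 0.5 h replicate 3 stood apart from the other 11 libraries on the third component, with a score of 100.4 against -30.4 to 18.7, so results that rest on it are given with and without it. In TT at 0 h the 100 most abundant genes took 19.6% to 22.0% of the counts, against 14.3% to 18.3% in the other 9 libraries, and the part of this in the results was not tested. The columns of the deposited TPM table end in a letter whose meaning is not given in the sources used here: it is B in all 3 TT 0 h libraries and in TT 0.5 h replicate 3, and A in the other 8, so that the letter runs along with the cold response in TT and not with that in YT. Counts of calls are therefore also given with the letter in the model. Nothing in the labels says more of the replicates than that they were biological. The p-values set a difference against the spread between replicates, which was estimated over all 36 libraries of the series.

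The interaction was called, where edgeR's quasi-likelihood test gave an adjusted p (Benjamini-Hochberg) below 0.05 and the log2 difference exceeded 1 in either direction, for 372 genes (1.57% of those tested). The response was lower in YT for 284 of them (1.2% of the genes tested) and higher in YT for 88 (0.371%). The median interaction over all genes tested was -0.02 on the log2 scale. The cold response itself was called for 1217 up-regulated (5.13% of the genes tested) and 278 down-regulated genes in TT, and for 346 (1.46%) and 26 genes in YT.

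**Figure D1:**
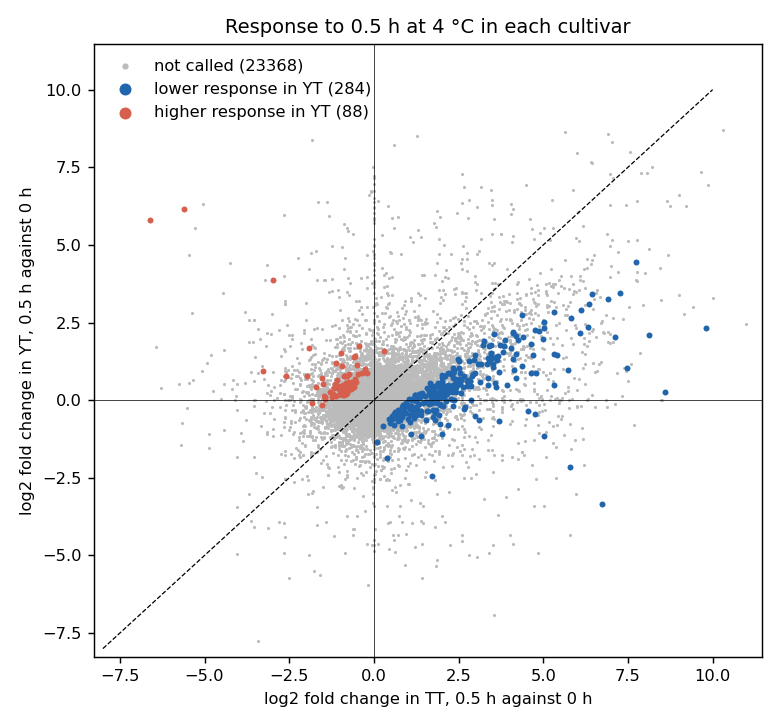
Log2 fold change from 0 h to 0.5 h at 4 °C in TT (x axis) against that in YT (y axis) for the 23740 genes tested, with the 284 genes of lower response in YT in blue, the 88 of higher response in red and the dashed line at equal responses. The blue points lie to the right of 0, since TT rose in all 284 estimates, and most red points lie to the left of 0 and above it.

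Genes with a lower response in YT were genes that rose in TT. The TT estimate was above 0 for all 284, and 238 of them were called up in TT, against 5.13% of all genes tested. Of these 238, 51 were also called up in YT (18% of the 284, against 1.46% of all genes) and 187 were not called in YT. No gene was called down in TT, 2 were called down in YT, and 44 were called in neither cultivar. The YT estimate was above 0 but smaller than that of TT for 178 of the 284, and at or below 0 for the other 106. The median log2 change was 2.07 in TT (quartiles 1.28 and 3.27) and 0.28 in YT (quartiles -0.29 and 0.88). These values come from the contrast that chose the genes and are a description of them.

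The levels of these 284 genes are set side by side at both ends of the step. Levels at 0 h and 0.5 h make up the interaction that chose the genes. The shares against all genes below therefore describe the genes and test nothing. Before cold their level was higher in YT by a median of 0.75 on the log2 scale, and after 0.5 h it was lower in YT by a median of 0.97 (median YT minus TT -0.97). At 0 h, 87 were called YT-higher and 1 TT-higher, against 3.48% and 2.6% of all genes tested. At 0.5 h, 2 were called YT-higher and 120 TT-higher, against 1.83% and 2.68% of all genes. A difference was called at 0.5 h alone for 105 (37%, against 2.49% of all genes) and at 0 h alone for 71 (25%, against 4.06%). It was called at both times for 17 (5.99%, against 2.03%) and at neither for 91 (32%, against 91.4%). Of the 17, 14 went from YT-higher to TT-higher. The 3 YT libraries at 0 h lay above all 3 TT libraries for 205 of the 284 genes (72.2%, against 19.4% of all genes), and the 3 TT libraries at 0.5 h lay above all 3 YT libraries for 212 (74.6%, against 15.2%).

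Genes with a higher response in YT followed the reverse pattern with smaller changes. Their changes and levels also chose them, so the shares against all genes only describe them. The TT estimate was below 0 and the YT estimate above 0 for 85 of the 88. A fall in TT was called for 25 genes (28.4%, against 1.17% of all genes) and a rise in YT for 5 (5.68%, against 1.46%), with 1 gene in both sets. In neither cultivar were 59 genes called (67%, against 93.5% of all genes). The median log2 change was -0.85 in TT and 0.44 in YT. Their level was TT-higher at 0 h by call for 24 (27.3%, against 2.6% of all genes) and YT-higher at 0.5 h for 15 (17%, against 1.83%). YT 0.5 h replicate 3, the library that stood apart, was the highest of its group for 76 of the 88 genes (86.4%, against 40.5% of all genes tested), and without it 13 genes were called as higher in YT and 128 as lower.

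The called genes lay on all 24 chromosomes of the Nitab-v4.5 assembly. The share of tested genes with a lower response in YT ranged from 0.581% on chromosome 7 (4 of 689 genes) to 2.07% on chromosome 3 (14 of 677). The 284 genes had a median level of 26.8 CPM over the 12 libraries and the 88 genes one of 40.6 CPM, against 13.5 CPM for all genes tested. The median summed exon length was 1606 bases for the 284, 989.5 bases for the 88 and 1137 bases for all genes tested. A gene counts as at the floor in a group when no library of it exceeds 3 counts, which held for 10 of the 284 genes and 2 of the 88.

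To see which kinds of genes these were, the study's tables of hub genes, of transcription factors (TFs) and protein kinases (PKs) changed at all time points, and of NtCBF genes were used. They hold 299 genes, of which 293 were tested. Of these, 54 had a lower response in YT (18.4%, against 1.2% of all genes tested) and 0 a higher one by edgeR. The 88 genes and 230 of the 284 thus have no description in these tables. At an unadjusted p under 0.05, 151 of the 293 passed in either direction, against 5178 of all 23740 genes tested. The hub genes, TFs and PKs were selected by the study on these same samples, the TT lists for a change in TT at each time point that includes 0.5 h, so their direction is not independent evidence. All 54 were called up in TT and 20 were called up in YT. Of the 54, 30 were called without YT 0.5 h replicate 3 and 19 in all 12 fits that each left out 1 library.

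Protein kinases made up most of the called genes in the tables. Of 85 PKs changed throughout, all tested, 32 had a lower response in YT (37.6%, against 1.2% of all genes tested) and 0 a higher one. Their median interaction was -1.43, against -0.02 over all genes tested. Of the 85, 78 were listed for a change in TT and 19 for one in YT. Of the 115 TFs, 8 had a lower response (6.96%) and 0 a higher one. Their median was -1.05 (-1.07 with the 16 genes that had a group at the floor set to their bound). The pink module is a set of co-expressed genes that the study defined on these libraries. Of its 50 hub genes, 15 had a lower response (30%) and 0 a higher one, with a median of -1.68 and all 50 estimates below 0. Its hub genes rose by a median log2 of 3.76 in TT and 1.85 in YT. The brown module, defined in the same way, had 0 of 50 hub genes called by edgeR, with 7 at an unadjusted p under 0.05, 0 called lower by DESeq2 and a median of 0.12 (0.15 with its 12 genes that had a group at the floor set to their bound). The 14 TFs and 6 PKs that differed between the cultivars at every time point held 0 called genes by edgeR, with 2 and 1 at an unadjusted p under 0.05. Over all 23740 genes tested, 5178 were at an unadjusted p under 0.05. Leaving out YT 0.5 h replicate 3 took the counts to 18 PKs, 3 TFs and 10 pink hub genes.

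**Figure D2:**
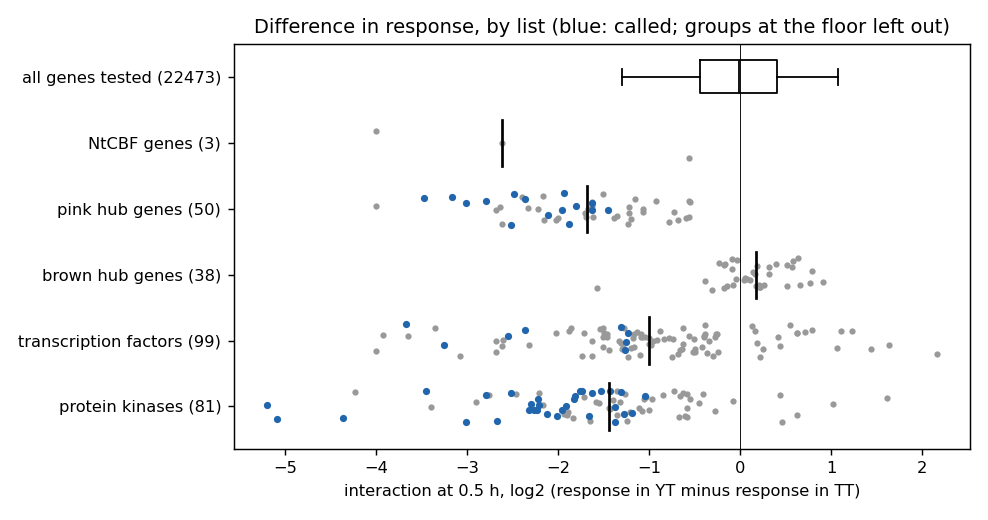
Interaction at 0.5 h on the log2 scale for the genes of each list, with called genes in blue, others in grey and a bar at the list's median. The top row is a box plot of all genes tested (box at the quartiles, whiskers at the 5th and 95th percentiles), and genes with a group at the floor are left out of every row, which leaves 99 TFs, 81 PKs, 38 brown hub genes and 3 NtCBF genes. All 50 pink hub genes lie below 0, and the brown hub genes lie around 0.

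Calcium-dependent protein kinases (CDPKs) bind calcium through EF-hands and phosphorylate their targets in response. Of the families counted they had the largest called share, with 5 of 6 lower in YT. Over all table genes tested the share was 18.4%, and over all genes tested 1.2%. As most listed PKs were chosen for a change in TT, this ranking is not independent evidence on the CDPKs. One of them, a pink hub gene described as CPK7 (Nitab4.5_0002649g0020, chromosome 4, 130931629 to 130935357, plus strand), was at 10.3, 12.4 and 12.99 CPM in the 3 TT libraries at 0 h and at 89.0, 171 and 202.4 CPM at 0.5 h. In YT it was at 13.5, 19.9 and 32.9 CPM at 0 h and at 39.96, 52.6 and 31.2 CPM at 0.5 h. All 3 TT libraries rose above every other library, whereas the YT libraries at 0.5 h overlapped those at 0 h. The log2 change was 3.69 ± 0.43 (SE) in TT and 0.90 ± 0.39 in YT, an interaction of -2.79 ± 0.56 (edgeR adjusted p = 0.00863), and the adjusted p was 0.0524 without YT 0 h replicate 3.

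A CDPK with no further name (Nitab4.5_0003290g0010, chromosome 3, 52302027 to 52307038, minus strand) was lower in level and moved the same way. It was at 1.74, 1.76 and 2.56 CPM in TT at 0 h and 15.8, 21.1 and 26.5 CPM at 0.5 h, and at 3.74, 2.29 and 3.81 CPM in YT at 0 h and 4.35, 4.00 and 7.71 CPM at 0.5 h. The TT libraries at 0.5 h overlapped no other group, and every YT library at 0.5 h lay above every YT library at 0 h by a small margin. Its interaction was -2.67 ± 0.44 (adjusted p = 0.00192), and it was called in all 12 fits that each left out 1 library. The other 3 called CDPKs, singled out after their values were seen, had interactions of -1.82 (Nitab4.5_0006119g0050), -1.38 (Nitab4.5_0000864g0060) and -1.19 (Nitab4.5_0000438g0070), with adjusted p by edgeR from 0.00791 to 0.046. In the leave-one-out fits they were called 10, 12 and 3 times of 12, with adjusted p up to 0.125 for the last. By the words of their descriptions, 6 of 10 genes tied to calcium were lower in YT (60%, against 18.4% of all table genes tested), and 10 of 10 estimates were below 0.

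The sixth of these genes, Nitab4.5_0000224g0060 (chromosome 17, 119615599 to 119617017, plus strand), is described as a calcium-transporting ATPase, a class of pump that removes calcium from the cytosol. Its level in TT was 3.06, 4.24 and 5.04 CPM at 0 h and 49.3, 79.8 and 88.1 CPM at 0.5 h. In YT it was 4.27, 7.605 and 8.98 CPM at 0 h and 10.6, 20.1 and 10.1 CPM at 0.5 h. The lowest TT library at 0.5 h was above the highest YT library. The gene rose by a log2 of 4.13 ± 0.38 in TT and was not called in YT (0.96 ± 0.34, adjusted p = 0.21), with an interaction of -3.17 ± 0.50 (adjusted p = 0.00142) that was called in all 12 leave-one-out fits.

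Receptor-like and cytoplasmic kinases, many of which act in sensing at the cell surface, held the largest called interactions among the PKs. DUF26 kinases were lower in YT for 7 of 11 members, receptor-like cytoplasmic kinases VII for 3 of 9 and leucine rich repeat kinases for 2 of 11. SNF1-related kinases (SnRK) were lower for 2 of 6 members and S domain kinases for 1 of 7. Over all listed PKs the share was 37.6%, and over all genes tested 1.2%. A wall-associated kinase-like gene (Nitab4.5_0002372g0020, chromosome 8, 20107261 to 20116035, plus strand) was at 0, 0.168 and 0.271 CPM in TT at 0 h and at 15.3, 23.9 and 24.7 CPM at 0.5 h. In YT it was at 0.534, 0.775 and 0.792 CPM at 0 h and at 2.91, 3.51 and 2.23 CPM at 0.5 h. The YT libraries were above the TT libraries before cold and below them after it, with no overlap at either time. Its interaction of -5.09 ± 0.95 (adjusted p = 0.00528) was called in all 12 leave-one-out fits.

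A receptor-like cytoplasmic kinase VI gene (Nitab4.5_0001323g0150, chromosome 19, 59298706 to 59301999, plus strand) moved in opposite directions by estimate. It was at 0.373, 0.336 and 0.388 CPM in TT at 0 h and 2.05, 6.38 and 5.88 CPM at 0.5 h, and in YT at 0.877, 0.845 and 2.04 CPM at 0 h and 0.983, 0.953 and 0.397 CPM at 0.5 h. The rise in TT was called, and the YT estimate of -0.68 ± 0.44 was not (adjusted p = 0.64). The interaction was -4.36 ± 0.65 (adjusted p = 0.00102), called in all 12 leave-one-out fits.

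In TT at 0 h the wall-associated kinase-like gene had 0, 4 and 7 counts and the receptor-like cytoplasmic kinase VI gene 9, 8 and 10. The sizes of their interactions thus rest on few reads at 0 h. Both other kinases of this kind among the 12 largest also rested on few reads, and on few libraries. The receptor-like cytoplasmic kinase VII gene Nitab4.5_0001199g0020 was at 0.619, 4.75 and 6.07 CPM in TT at 0.5 h and at 0.078 to 0.954 CPM in the other 9 libraries, so TT replicate 1 overlapped them. Its interaction of -5.20 ± 1.43 had an adjusted p of 0.0498 and was called in 2 of 12 leave-one-out fits (adjusted p 0.0266 to 0.167), and it was not called with DESeq2 size factors (0.0507), without the expression filter (0.0501) or with TT at 0.5 h taken from its letter B library (0.0554). The DUF26 kinase Nitab4.5_0004360g0070 was at 2.28, 7.10 and 6.49 CPM in TT at 0.5 h and 0.265, 2.63 and 0.477 CPM in YT, with an interaction of -3.45 ± 0.93 (adjusted p = 0.0475) that was called in 2 of 12 such fits (adjusted p 0.00504 to 0.163). It was not called in the fit of only the 12 libraries (0.0883), with the column letter as a term (0.0547) or with the letter B library (0.0829).

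MAPK cascades were represented at 2 levels. The MAP3K gene Nitab4.5_0002972g0030 (chromosome 16, 49758406 to 49761350, plus strand), a kinase of the first tier, was at 2.07, 2.73 and 2.52 CPM in TT at 0 h and 19.4, 32.7 and 34.8 CPM at 0.5 h. In YT it was at 3.85, 5.28 and 6.26 CPM at 0 h and 8.85, 6.14 and 7.59 CPM at 0.5 h. YT was above TT in every library before cold and below it in every library after. The interaction was -3.01 ± 0.56 (adjusted p = 0.00523), called in all 12 leave-one-out fits.

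A gene of the MAPK family itself, the last tier of the cascade (Nitab4.5_0000022g0300, singled out after its values were seen), was far more abundant, with 29.8, 30.1 and 30.6 CPM in TT at 0 h and 391.4, 618.1 and 725.3 CPM at 0.5 h. In YT it was at 35.4, 43.0 and 57.8 CPM at 0 h and 137.1, 187.3 and 197.9 CPM at 0.5 h. It was up-regulated in both cultivars without overlap, by a log2 of 4.26 ± 0.33 in TT and 1.94 ± 0.30 in YT, and the TT libraries ended above all YT libraries. The interaction was -2.32 ± 0.41 (adjusted p = 0.00379), called in all 12 leave-one-out fits.

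**Figure D3:**
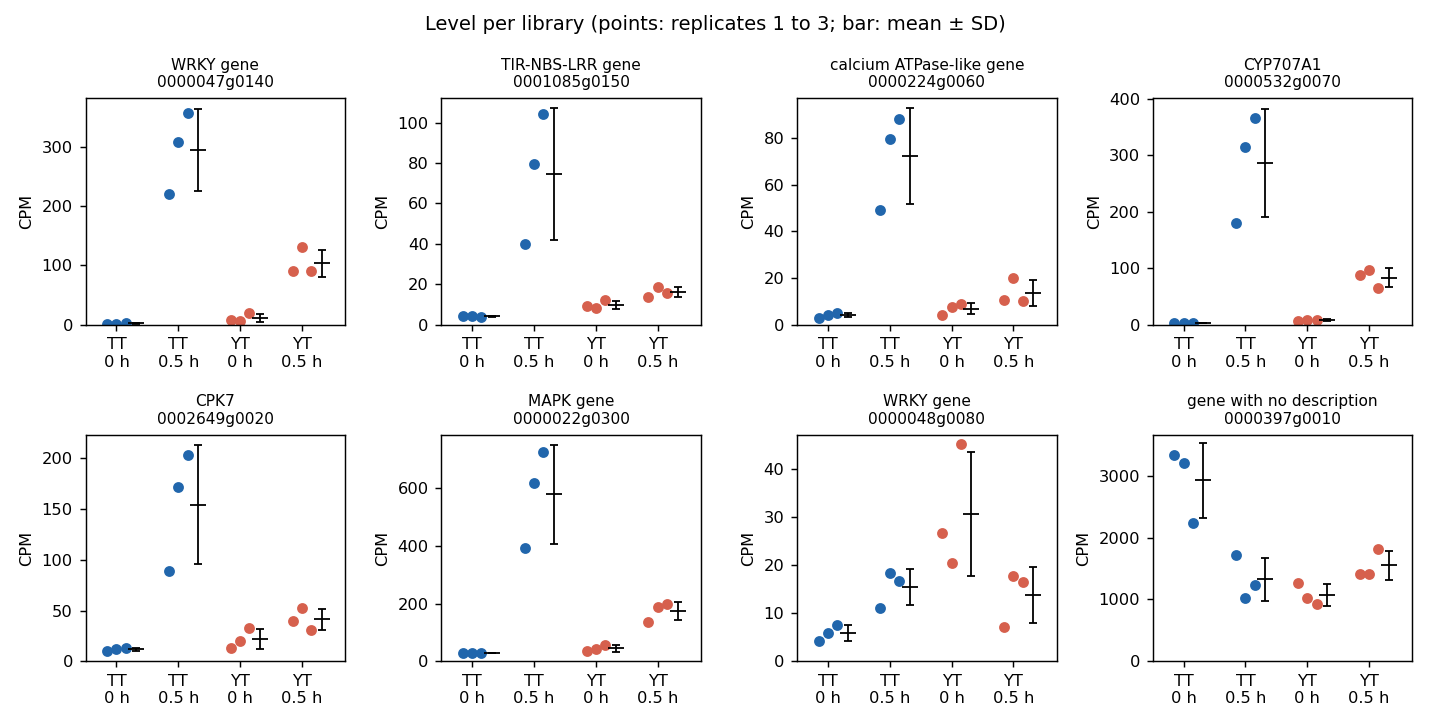
CPM of 8 genes in each library, with TT in blue and YT in red, replicates 1 to 3 as points from left to right and the mean ± SD of 3 libraries beside them. In the 6 panels from the WRKY gene 0000047g0140 to the MAPK gene all 3 TT libraries at 0.5 h stand above every other library, whereas the WRKY gene 0000048g0080 fell by estimate in YT and the gene with no description fell in TT.

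WRKY transcription factors bind W-box elements and act in defence and stress responses. The share lower in YT was 1.2% over all genes tested, 18.4% over all table genes tested and 25% (4 of 16 members) for WRKY genes. Over these 16 the median interaction was -1.80, with 15 estimates below 0. Among them Nitab4.5_0000047g0140 (chromosome 2, 42796915 to 42799421, plus strand) was at 1.74, 2.01 and 3.49 CPM in TT at 0 h and 219.8, 307.6 and 356.4 CPM at 0.5 h. In YT it was at 7.93, 5.88 and 18.97 CPM at 0 h and 91.0, 130 and 90.2 CPM at 0.5 h. YT thus started above TT and ended below it, with no overlap at either time, and both cultivars rose by call, by a log2 of 6.92 ± 0.78 in TT and 3.25 ± 0.65 in YT. The interaction was -3.68 ± 0.90 (adjusted p = 0.0326), and 6 of 12 leave-one-out fits called it (adjusted p 0.0274 to 0.109), while the fit with the letter B library did not (0.0713).

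A WRKY gene on chromosome 10, Nitab4.5_0001226g0020 (24308457 to 24311148, minus strand), had a like course at 1.57, 2.60 and 3.61 CPM in TT at 0 h, 154, 226.4 and 254.7 CPM in TT at 0.5 h, 5.99, 6.76 and 13.8 CPM in YT at 0 h and 69.3, 93.1 and 62.6 CPM in YT at 0.5 h. Its interaction was -3.26 ± 0.85 (adjusted p = 0.0425), called in 5 of 12 leave-one-out fits (adjusted p 0.0345 to 0.131) and neither with the column letter as a term (0.0644) nor with the letter B library (0.0941). The other called WRKY genes, singled out after their values were seen, were called in all 12 such fits. Of these, Nitab4.5_0000046g0020 rose in both cultivars, from 31.9, 47.1 and 59.7 CPM to 402.9, 553.4 and 625.9 CPM in TT and from 98.9, 90.4 and 137.6 CPM to 243.2, 281.9 and 199.9 CPM in YT, with an interaction of -2.36 ± 0.41 (adjusted p = 0.00367).

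The last WRKY gene, Nitab4.5_0000048g0080, differed mainly before cold. It was at 4.22, 5.91 and 7.48 CPM in TT and at 26.7, 20.4 and 45.2 CPM in YT at 0 h, and at 11.2, 18.4 and 16.8 CPM in TT and 7.22, 17.8 and 16.6 CPM in YT at 0.5 h. The cultivars did not overlap at 0 h and overlapped at 0.5 h. TT rose by a log2 of 1.40 ± 0.32, the YT estimate was -1.15 ± 0.32 and missed the threshold (adjusted p = 0.051), and the interaction was -2.55 ± 0.45 (adjusted p = 0.00379).

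Of the other TF families, MYB had 1 of 14 members and GRAS 1 of 7 with a lower response in YT by edgeR, and AP2-EREBP genes other than NtCBF (26), C2H2 (6), bHLH (8), NAC (3) and Tify (3) had 0, with 7, 4, 3, 2 and 0 members at an unadjusted p under 0.05. The median interaction was below 0 in each of these families, from -0.66 for AP2-EREBP to -1.74 for Tify. Over all 115 listed TFs the called share was 6.96%. An unadjusted p under 0.05 was reached by 48 of them, against 5178 of all 23740 genes tested. The called GRAS gene was SCL13 (Nitab4.5_0000143g0040, chromosome 11, 1030518 to 1032122, plus strand), a pink hub gene of the SCARECROW-like group. It was at 40.1, 46.9 and 39.5 CPM in TT at 0 h and 137.7, 216.6 and 289.9 CPM at 0.5 h, and at 47.1, 35.95 and 61.4 CPM in YT at 0 h and 59.6, 81.0 and 97.6 CPM at 0.5 h. The cultivars overlapped at 0 h and did not at 0.5 h, and the interaction was -1.63 ± 0.40 (adjusted p = 0.0333), called in 6 of 12 leave-one-out fits (adjusted p 0.0114 to 0.11).

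Among the pink hub genes that are neither TFs nor kinases, the largest interaction was that of a TIR-NBS-LRR gene (Nitab4.5_0001085g0150, chromosome 19, 127330287 to 127339018, minus strand), of the class of intracellular immune receptors. It was at 4.14, 4.24 and 3.88 CPM in TT at 0 h and 39.8, 79.8 and 104.2 CPM at 0.5 h, and in YT at 9.27, 8.03 and 12.2 CPM at 0 h and 13.9, 18.5 and 15.9 CPM at 0.5 h. YT was above TT without overlap before cold and below it without overlap after. The log2 change was 4.19 ± 0.36 in TT and 0.72 ± 0.32 in YT, and the interaction of -3.47 ± 0.46 (adjusted p = 0.000567) was called in all 12 leave-one-out fits.

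CYP707A1 (Nitab4.5_0000532g0070, chromosome 15, 101370888 to 101373142, minus strand) encodes an abscisic acid 8'-hydroxylase, the enzyme class that starts the breakdown of this stress hormone. In TT it was at 2.73, 3.69 and 3.53 CPM at 0 h and 180.5, 314 and 365.6 CPM at 0.5 h, and in YT at 6.07, 8.59 and 8.75 CPM at 0 h and 88.2, 96.5 and 65.0 CPM at 0.5 h. Both cultivars rose by call, by a log2 of 6.43 ± 0.62 and 3.41 ± 0.53, and every TT library at 0.5 h was above every YT library. The interaction was -3.02 ± 0.72 (adjusted p = 0.0285), called in 5 of 12 leave-one-out fits (adjusted p 0.0168 to 0.0974).

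Further pink hub genes, singled out after their values were seen, covered signalling and metabolism. A pair of genes described as NUDT17, a nudix hydrolase homolog, had nearly equal interactions of -2.52 ± 0.49 (Nitab4.5_0002450g0150, adjusted p = 0.00703) and -2.48 ± 0.62 (Nitab4.5_0002046g0140, adjusted p = 0.0333). A protein phosphatase 2C gene (Nitab4.5_0002017g0040) rose from 12.9, 13.9 and 18.96 CPM to 221.8, 319.3 and 400.7 CPM in TT and from 18.9, 20.9 and 25.6 CPM to 111.4, 140 and 183.9 CPM in YT. The groups did not overlap at 0.5 h, and its interaction was -1.63 ± 0.39 (adjusted p = 0.0297). VPS24.1 (Nitab4.5_0001163g0120), of the SNF7 family that acts in sorting of membrane cargo, had an interaction of -1.89 ± 0.31 (adjusted p = 0.00241) and was called in all 12 leave-one-out fits, as was the first NUDT17 gene. The second NUDT17 gene was called in 5 of them (adjusted p 0.0252 to 0.122) and not with the letter B library (0.0581), and the phosphatase gene in 7 (0.0126 to 0.0968).

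NtCBF genes, chosen by the study from protein sequence, were at or near 0 before cold in both cultivars. After 0.5 h those tested were all present in TT, and all but NtCBF17 were present in YT. Of 15 gene models in the study's table, 9 were in the count table used here and were tested. By the interaction 0 were called in edgeR, with 2 at an unadjusted p under 0.05 and 1 called lower by DESeq2. Over all 23740 genes tested, 5178 were at an unadjusted p under 0.05. For 6 of the 9 a group was at the floor, and the SE reached 23840 (NtCBF17). The test was thus weak for these 6, and 0 calls do not show equal responses. The median interaction over the 9 was -1.58, and -3.55 with the 6 set to their bound. NtCBF5 (Nitab4.5_0002394g0010, chromosome 6, 99170480 to 99171139, plus strand) was at 0.497, 0.671 and 0.155 CPM in TT at 0 h and 83.2, 221.6 and 237.5 CPM at 0.5 h, and in YT at 0.534, 2.46 and 1.28 CPM at 0 h and 33.1, 28.9 and 48.8 CPM at 0.5 h. The cultivars overlapped at 0 h and not at 0.5 h. Its interaction of -4.003 ± 1.15 missed the threshold (adjusted p = 0.0585), although YT was lower than TT at 0.5 h by call (log2 -2.29, adjusted p = 0.02). It passed with DESeq2 (adjusted p = 0.00441), in the fit of only the 12 libraries (0.0136), with the column letter as a term (0.0237) and without TT 0.5 h replicate 1 (0.0443). The last was the only 1 of 12 leave-one-out fits that called it (adjusted p up to 0.159). It was not called with DESeq2 size factors in edgeR (0.06), the replicate number as a block (0.0667) or no expression filter (0.0556).

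NtCBF2 (Nitab4.5_0001083g0010) was at 60.9, 179.1 and 186.1 CPM in TT and 24.04, 22.995 and 36.6 CPM in YT at 0.5 h, with no overlap and an interaction of -2.61 ± 1.23 (adjusted p = 0.208). The study's qRT-PCR, on a separate batch of samples, gave the opposite direction at 0.5 h, with NtCBF2 higher in YT than in TT. The reason for this difference was not tested. NtCBF3 (Nitab4.5_0005990g0020) was at 32.6, 92.04 and 88.8 CPM in TT and 21.3, 16.9 and 28.4 CPM in YT, also without overlap, with an interaction of -0.56 ± 1.93 (adjusted p = 0.904). At 0 h both genes were at 1.76 CPM or less in all 6 libraries.

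The other 6 NtCBF genes tested were at the floor of 3 counts in every library of at least 1 group, so that no fold between the responses is given. NtCBF10 (Nitab4.5_0002419g0050) was at 1.897, 10.8 and 16.1 CPM in TT and 1.17, 0.496 and 1.15 CPM in YT at 0.5 h, which is at least 78.7-fold and at least 8.46-fold higher than the floor of the cultivar's 0 h libraries. NtCBF11/NtCBF12 (Nitab4.5_0005990g0030) was at 2.90, 5.52 and 10.99 CPM in TT and 2.76, 2.63 and 1.07 CPM in YT, at least 53.0-fold and 19.4-fold higher. NtCBF19 (Nitab4.5_0000140g0200) was at 1.47, 5.52 and 6.95 CPM in TT and 0.302, 0.343 and 0.239 CPM in YT, at least 38.1-fold and 2.65-fold higher. For these 3 genes the TT libraries lay above the YT libraries at 0.5 h without overlap.

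NtCBF9/NtCBF13/NtCBF14 (Nitab4.5_0002419g0020) was at 1.94, 6.93 and 15.1 CPM in TT at 0.5 h and at 0.378, 0.534 and 1.27 CPM in YT, the latter at least 6.55-fold higher than the floor. NtCBF21 (Nitab4.5_0001200g0100) was at 3.60, 27.9 and 22.1 CPM in TT and 1.36, 0.267 and 0.755 CPM in YT, the latter at least 7.15-fold higher. NtCBF17 (Nitab4.5_0001834g0020) was at 0.155, 2.01 and 2.31 CPM in TT at 0.5 h, at least 12.2-fold higher than the floor by the mean, and at 0 counts in all 6 YT libraries. All 9 NtCBF genes tested thus had every TT library above every YT library at 0.5 h, as did 15.2% of all genes tested.

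Of the 13 genes that the study took to qRT-PCR, SCL13 alone was called by the interaction in edgeR, and 4 of the other 12 had adjusted p between 0.0594 and 0.208. COBL7, a COBRA-like cell wall gene (Nitab4.5_0000616g0070), was at 271.3, 484.1 and 546.7 CPM in TT and 123.3, 131.6 and 176.1 CPM in YT at 0.5 h, after 27.3 to 37.5 CPM in the 6 libraries at 0 h. Its groups did not overlap at 0.5 h, and its interaction was -1.63 ± 0.47 (adjusted p = 0.0594). The GRAS gene PAT1 (Nitab4.5_0000092g0120) had an interaction of -2.03 ± 0.66 (adjusted p = 0.0847), the C2H2 gene Nitab4.5_0002105g0060 one of -1.51 ± 0.51 (adjusted p = 0.0914), and the fourth was NtCBF2. COBL7, PAT1 and the C2H2 gene were called by DESeq2 (adjusted p 0.014, 0.0425 and 0.0354) and in the fit of only the 12 libraries (0.0178, 0.0171 and 0.0136), and COBL7 and the C2H2 gene also with the column letter as a term (0.00807 and 0.0307).

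The 8 remaining genes of that set differed in response by less than 0.6 on the log2 scale, and none was called. ERF3 (Nitab4.5_0001393g0040), an AP2-EREBP gene, rose by call in both cultivars, by a log2 of 1.903 ± 0.35 in TT and 1.34 ± 0.34 in YT, with an interaction of -0.56 ± 0.48 (adjusted p = 0.528). The other 7 were higher or lower in one cultivar at both times and changed in neither by call. Of these, the coatomer alpha subunit gene (Nitab4.5_0001840g0100) was at 94.4 to 133.6 CPM in TT and 0.567 to 1.602 CPM in YT, with an interaction of 0.58 ± 0.39 (adjusted p = 0.394). TOM2A (Nitab4.5_0002055g0160) was at 25.6 to 30.0 CPM in TT and 121.3 to 162 CPM in YT, with an interaction of -0.17 ± 0.18 (adjusted p = 0.647). For the other 5, which are WRKY21, RAP74, an ABI3VP1 gene, a UDP-glycosyltransferase gene and a gene of unknown function, the interactions lay between -0.38 and 0.26.

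Of called genes with no description in the tables, the largest with a clear separation of groups were taken. Nitab4.5_0000518g0090 was at 1.37, 0.503 and 1.09 CPM in TT at 0 h and 45.6, 72.4 and 82.6 CPM at 0.5 h, and in YT at 4.42, 2.71 and 9.73 CPM at 0 h and 12.5, 33.5 and 28.8 CPM at 0.5 h. Nitab4.5_0001461g0070 was at 3.97, 2.94 and 3.49 CPM in TT at 0 h and 132.9, 136.2 and 146.2 CPM at 0.5 h, and in YT at 17.6, 7.605 and 61.1 CPM at 0 h and 68.1, 102 and 72.3 CPM at 0.5 h. Their interactions were -3.92 ± 0.80 (adjusted p = 0.00968) and -3.83 ± 0.79 (adjusted p = 0.0113), and in both genes YT 0 h replicate 3 was the highest of its group. Without that library the adjusted p was 0.0584 and 0.075.

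In the other direction, Nitab4.5_0000283g0300 was lower in TT after cold. It was at 21.9, 27.5 and 22.3 CPM in TT at 0 h and 7.05, 7.45 and 5.61 CPM at 0.5 h, against 12.3 to 13.9 CPM in all 6 YT libraries. Its interaction of 1.76 ± 0.41 (adjusted p = 0.0241) was called in 7 of 12 leave-one-out fits (adjusted p 0.0233 to 0.0833), and neither with the column letter as a term (1.38, adjusted p = 0.069) nor with the letter B library (adjusted p = 0.085). Nitab4.5_0000397g0010 was among the abundant genes, at 3335, 3210 and 2230 CPM in TT at 0 h and 1713, 1028 and 1234 CPM at 0.5 h, and in YT at 1272, 1019 and 929 CPM at 0 h and 1415, 1419 and 1813 CPM at 0.5 h. It fell by call in TT (log2 -1.14 ± 0.22) and was not called in YT (0.53 ± 0.22, adjusted p = 0.33), where the libraries at 0.5 h lay above those at 0 h, and its interaction of 1.67 ± 0.31 (adjusted p = 0.00523) was called in all 12 leave-one-out fits.

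The libraries at 1, 2, 4 and 8 h, which are in none of the 4 groups of the interaction but shared in its estimate of the spread, show how long the levels differed. For the 284 genes the median of YT minus TT was -0.23 on the log2 scale after 1 h in the cold, -0.04 and 0.07 after 2 and 4 h, and -0.07 after 8 h, against 0.01 to -0.02 over all genes tested. At 1 h, 24 of the 284 (8.45%) were TT-higher and 3 (1.06%) YT-higher, against 2.79% and 2.45% of all genes. After 2 h the counts were 13 (4.58%) and 5, against 2.22% and 2.67% of all genes. After 4 h they were 4 and 27 (9.51%), against 2.57% and 4.17%, and after 8 h 13 (4.58%) and 7, against 1.92% and 1.98%. TT-higher genes were thus more frequent among the 284 than among all genes at 1 h, less so at 2 h and 8 h, and at 4 h the larger count was YT-higher.

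For the 88 genes the median of YT minus TT was 0.07 after 1 h and 0.02 after 2 h, and then 0.18 and 0.23 after 4 and 8 h, and the YT-higher genes were 9 (10.2%, against 2.45% of all genes), 1 (1.14%, against 2.67%), 6 (6.82%, against 4.17%) and 8 (9.09%, against 1.98%) in this order. TT-higher genes among the 88 were 2, 3, 2 and 0. The interactions at later times share the 0 h libraries with that at 0.5 h and are given side by side only. Over the 284 genes their medians for 1, 2, 4 and 8 h were -0.97, -0.77, -0.69 and -0.85. A lower response in YT was called at 1 h for 12 of the 284 (4.23%, against 0.08% of all genes) and at 2 h for 42 (14.8%, against 0.986%). At 4 h it was called for 27 (9.51%, against 0.548%) and at 8 h for 78 (27.5%, against 2.37%).

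**Figure D4:**
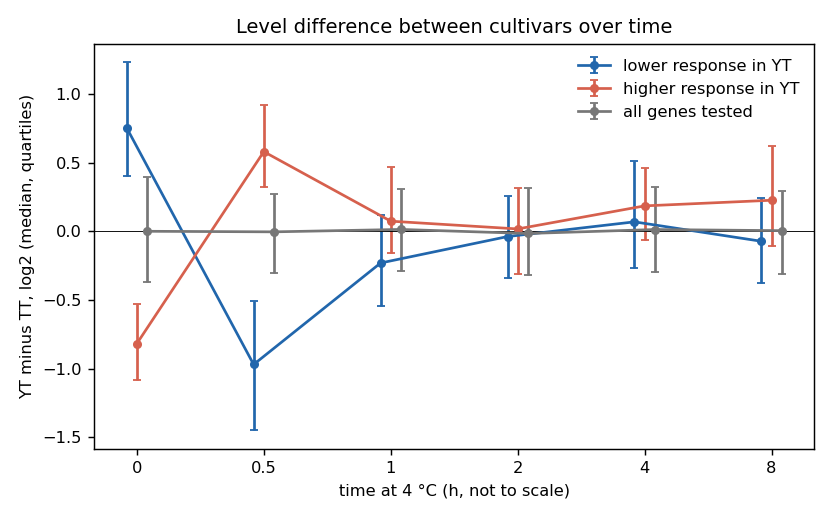
Median of YT minus TT on the log2 scale (y axis, bars at the quartiles) at each time at 4 °C for the 284 genes of lower response (blue), the 88 of higher response (red) and all genes tested (grey). The values at 0 h and 0.5 h chose the genes (0.75 and -0.97 for the 284), and the blue median lies at -0.23 at 1 h and within 0.07 of 0 from 2 h on.

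How many genes were called depended on single libraries. With each library left out in turn, between 71 and 497 genes had a lower response in YT and between 12 and 273 a higher one, and the signs of all 372 estimates stayed the same in all 12 fits. The lowest count of all came without TT 0.5 h replicate 3 (83 genes) and the highest without TT 0 h replicate 3 (769). Of the 284 genes 59 were called in all 12 fits, and of the 88 genes 9. Without YT 0.5 h replicate 3 the count was 141, of which 136 were among the 372. Over the 284 genes TT 0.5 h replicate 1 was the lowest of its group for 226 (79.6%, against 34.7% of all genes) and YT 0 h replicate 3 the highest of its group for 205 (72.2%, against 38.3%). With the letter of the TPM columns as a term, 283 genes had a lower response and 37 a higher one. Of these 320 genes, 242 were among the 372. With TT at 0.5 h taken from replicate 3 alone, the library that shares its letter with TT 0 h, the counts were 179 and 16, and this lone library was assumed to vary like the other groups. Both of these fits were added after seeing the data.

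**Figure D5:**
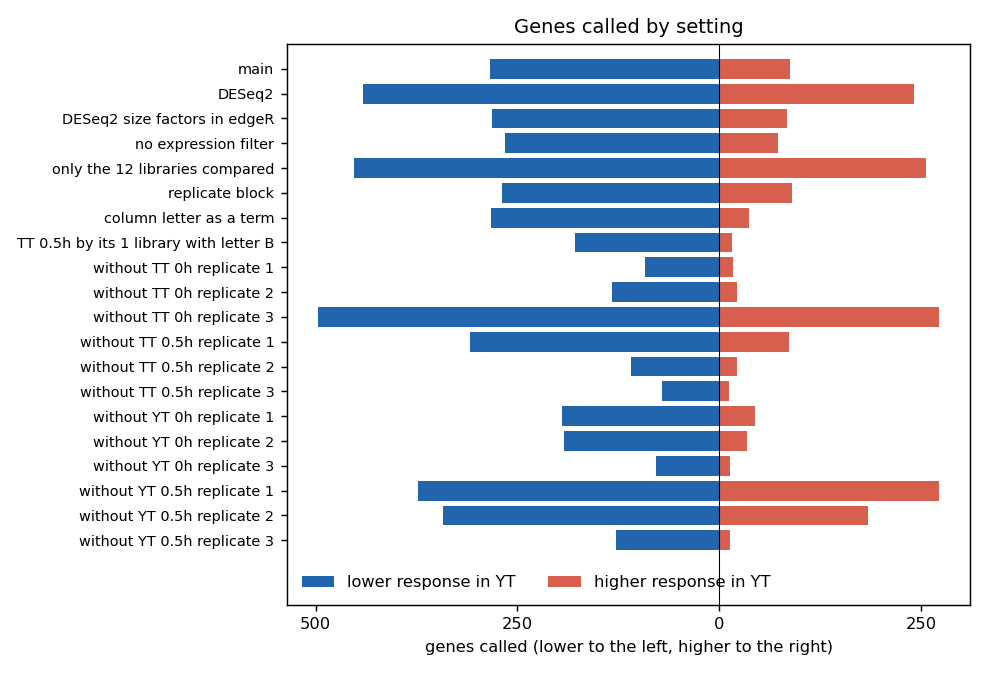
Genes called with a lower response in YT (blue, to the left) and a higher response in YT (red, to the right) in the fit reported (284 and 88), under each alternative and with each of the 12 libraries left out. In every fit shown more genes were lower than higher in YT, and the bars without TT 0.5 h replicate 3 are the shortest (71 and 12).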

How the data were processed

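Counts per gene were deposited by the authors as output of featureCounts 1.6.4, run without strand and without multi-mapping reads on gene models of Nitab-v4.5, after Trim Galore 0.6.4, HISAT2 2.0.5 and removal of alignments with a mapping quality below 20; they are not normalized. The authors' deposited TPM values (StringTie 1.3.4d) served here only to read the column letters, and 0 value columns belonged to no sample. Library groups came from the sample labels. In R 4.3.3, edgeR 4.0.16 was fitted to all 36 libraries with 12 group terms, TMM factors and filterByExpr, and tests were two-sided. Each SE is the size of the log2 value divided by the square root of its quasi-likelihood F statistic, so it is approximate. The study's Methods name DESeq2, which was an alternative here (version 1.42.0). CPM are TMM-scaled. The labels and the study's Methods differ on growth temperature. Gene lists were read from the study's supplementary tables, IDs and descriptions only. Members and gene lists were chosen with earlier results of these data known. Genes were named as follows: NtCBF genes, the 12 largest called list genes, the qRT-PCR genes, and the 2 largest called genes per direction with no description, a mean of at least 10 CPM and a leading group without overlap. Further genes are marked as singled out. The alternatives are given in the closing section. Scripts were tested on simulated data.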

Additional observations from a re-analysis of the deposited data

Results flagged for a closer look

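The response to 0.5 h of cold differed between the cultivars by the interaction test for 284 genes with a lower and 88 with a higher response in YT, and for the genes below, each with its log2 difference (YT minus TT). Among kinases of the cell surface and cytoplasm the values were -5.2 for the receptor-like cytoplasmic kinase VII gene Nitab4.5_0001199g0020, -5.09 for the wall-associated kinase-like gene Nitab4.5_0002372g0020, -4.36 for the receptor-like cytoplasmic kinase VI gene Nitab4.5_0001323g0150 and -3.45 for the DUF26 kinase gene Nitab4.5_0004360g0070. The leucine rich repeat kinase X gene Nitab4.5_0000003g0890 had -1.96.

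In calcium and MAPK signalling the difference was -3.17 for the calcium-transporting ATPase gene, -2.79 for CPK7 and -2.67, -1.82, -1.38 and -1.19 for the other CDPK genes in the order of the report. It was -3.01 for the MAP3K gene and -2.32 for the MAPK gene. Among TFs it was -3.68, -3.26, -2.55 and -2.36 for the WRKY genes Nitab4.5_0000047g0140, Nitab4.5_0001226g0020, Nitab4.5_0000048g0080 and Nitab4.5_0000046g0020, and -1.63 for SCL13, -1.31 for the PLATZ gene Nitab4.5_0003437g0010 and -1.26 for the HSF gene Nitab4.5_0005428g0010.

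Among other pink hub genes it was -3.47 for the TIR-NBS-LRR gene, -3.02 for CYP707A1, -2.52 and -2.48 for the NUDT17 genes, -2.36 for the DUF677 gene Nitab4.5_0004280g0090, -1.96 for the glutaredoxin gene Nitab4.5_0006635g0010, -1.89 for VPS24.1 and -1.63 for the protein phosphatase 2C gene. Of genes with no description, Nitab4.5_0000518g0090 and Nitab4.5_0001461g0070 had -3.92 and -3.83, and Nitab4.5_0000283g0300 and Nitab4.5_0000397g0010 had 1.76 and 1.67. Groups of 3 libraries were not screened for outlying values.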

How the results depend on the processing

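Counts are genes called by the interaction, lower in YT unless stated, and those reported are 372 in all (284 lower, 88 higher), with 15 pink hub genes, 8 TFs, 32 PKs, 0 brown hub genes and 0 NtCBF genes. DESeq2 called 683 (442 lower, 241 higher), with 24 pink hub genes, 26 TFs and 1 NtCBF gene, and 309 of the 372 were shared. A fit of only the 12 libraries called 710 (453 and 257), with 31 pink hub genes, 32 TFs and 1 NtCBF gene. Without a fold limit 150 genes were higher. DESeq2 size factors in edgeR (366 genes) and no expression filter (338) moved none of these counts by over 1.5 times. In fits added after seeing the data, the column letter as a term gave 37 higher genes, 26 pink hub genes and 1 NtCBF gene, and TT at 0.5 h from its library with letter B gave 195 (179 and 16) with 2 TFs. The cause of these differences was not tested.

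Leaving out 1 library at a time gave 83 to 769 genes in all, 71 to 497 lower and 12 to 273 higher, with 6 to 18 pink hub genes, 3 to 15 TFs, 12 to 39 PKs, 0 to 1 brown hub genes and 0 to 1 NtCBF genes. The brown hub gene was called without TT 0 h replicate 3, and the NtCBF gene without TT 0.5 h replicate 1. Of the 12 fits, 4 called over 372 genes: those without TT 0 h replicate 3 (769), YT 0.5 h replicate 1 (646), YT 0.5 h replicate 2 (527) and TT 0.5 h replicate 1 (395). The lowest counts came without TT 0.5 h replicate 3 (83), YT 0 h replicate 3 (91), TT 0 h replicate 1 (109), TT 0.5 h replicate 2 (131), YT 0.5 h replicate 3 (141) and TT 0 h replicate 2 (155), followed by 226 without YT 0 h replicate 2 and 240 without YT 0 h replicate 1. Of the named genes with no called interaction, NtCBF3 ranged from -1.12 to 1.14 (positive without YT 0 h replicate 2) and RAP74 from -0.254 to 0.0797 (positive without TT 0.5 h replicate 1), and with letter B in TT at 0.5 h RAP74 was at 0.082 and WRKY21 at 0.0221. With the replicate number as a block 359 genes were called (269 lower, 90 higher), and it moved no count above by over 1.5 times. Libraries of the same number in different groups deviated together with correlations of -0.119 to 0.0911 over 18 pairs. Those of different numbers had correlations of -0.166 to 0.202 over 36 pairs. No pairing by number was seen, but these correlations cannot exclude it. Genes at 3 counts or fewer in a group limit the comparison at low levels, as for 6 of the 9 NtCBF genes.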

Other observations

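Some called genes of the tables with other roles were not described above and were singled out after their values were seen. The glutaredoxin gene Nitab4.5_0006635g0010, of a family of small redox enzymes, rose from 6.29, 6.63 and 7.40 CPM to 72.3, 84.6 and 114.4 CPM in TT and from 8.32, 8.98 and 7.21 CPM to 27.1, 29.2 and 27.9 CPM in YT. The cultivars overlapped before cold and did not after it, and the interaction was -1.96 ± 0.52 (edgeR adjusted p = 0.0443), called in 4 of 12 leave-one-out fits (adjusted p 0.0395 to 0.122). The leucine rich repeat kinase X gene Nitab4.5_0000003g0890 rose from 37.8, 53.8 and 53.1 CPM to 461.2, 508.4 and 622.3 CPM in TT and from 66.9, 57.04 and 106.4 CPM to 197.2, 260.8 and 192 CPM in YT. Its interaction was -1.96 ± 0.51 (adjusted p = 0.0399), called in 5 of 12 such fits (adjusted p 0.0368 to 0.127).

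The PLATZ gene Nitab4.5_0003437g0010 and the heat shock factor (HSF) gene Nitab4.5_0005428g0010 ended at like levels in both cultivars after different starts. The PLATZ gene was at 15.8, 20.8 and 22.0 CPM in TT and 41.8, 40.8 and 71.0 CPM in YT at 0 h, and at 87.4, 88.6 and 90.8 CPM in TT and 83.6, 99.8 and 99.0 CPM in YT at 0.5 h. The HSF gene was at 5.59, 7.13 and 6.98 CPM in TT and 11.8, 12.2 and 15.1 CPM in YT at 0 h, and at 17.3, 17.4 and 15.6 CPM in TT and 14.1, 16.2 and 11.3 CPM in YT at 0.5 h. For both genes the cultivars did not overlap at 0 h and overlapped at 0.5 h, and the interactions were -1.31 ± 0.31 (adjusted p = 0.0255) and -1.26 ± 0.24 (adjusted p = 0.00523). The PLATZ gene was called in 6 of 12 leave-one-out fits (adjusted p 0.0194 to 0.103) and the HSF gene in all 12. With TT at 0.5 h taken from its letter B library the call was lost for both (adjusted p 0.1 and 0.0535), and also for the glutaredoxin gene (0.073) and the leucine rich repeat kinase X gene (0.0915).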
